A study of Mus musculus with 6 samples.

Results

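Small nucleolar RNAs (snoRNAs), small Cajal body RNAs (scaRNAs), microRNAs and the long noncoding RNAs that carry or accompany them were examined in the growth plate of embryos with and without TET1, an enzyme that oxidizes methylated cytosine in DNA. The set was chosen by gene symbol alone, from the names in the authors' table of transcripts, and holds 133 RNAs of 7671 listed transcripts (1.73%). Of these, 61 are microRNA genes, 32 are box C/D snoRNAs, 26 are box H/ACA snoRNAs, 7 are scaRNAs and 4 are snoRNA host genes (Gas5, Snhg3, Snhg6 and Snhg9). The remaining 3 are Rmrp and Rpph1, the RNA components of RNase MRP and RNase P, and Neat1, the RNA scaffold of nuclear paraspeckles. The symbols in the authors' table include no Y RNA (Rny), Rn7sk, Malat1, Meg3 or H19, so these are not in the set. A count in each library was at hand for 1 member, the box C/D snoRNA Snord93 (0.752% of the set), whether identifiers were matched whole or without their version. Over the whole table, 21 of the 7671 rows (0.274%) had a counted identifier, so a missing count was not particular to these RNAs. Symbols were paired with counts through the names in the authors' table alone. The other 132 members are therefore described by identity, position and sequence, and no level or change is given for them.

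The tissue was cartilage dissected from hind limbs at E17.5, from 3 Tet1+/+ and 3 Tet1-/- samples of a C57BL/6 x 129S4/SvJae background, bred from heterozygous parents. No cartilage-specific driver of the deletion is named in the labels or methods. Each library was stranded total RNA after removal of ribosomal RNA, without a selection of small RNAs named in the methods. The estimated counts of a library summed to 196075, 272306 and 334982 in Tet1+/+ replicates 1, 2 and 3, and to 340235, 278567 and 422436 in Tet1-/- replicates 1, 2 and 3. These are sums of the deposited counts and lie far below the reads per sample that the paper reports, for a reason that was not tested. Library sizes, levels and ranks below are relative to these deposited counts and do not measure sequencing depth. Of 21929 counted identifiers, between 4827 and 6350 had a count in a given library. None of 30 marker genes of cartilage, bone, muscle, blood and skin had a count paired with a symbol, and Tet1 had none either, so the tissue label and the deletion were not checked in single libraries.

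Box C/D snoRNAs guide the methylation of ribose in ribosomal and spliceosomal RNA, and are named for 2 short motifs, a C box near the 5′ end and a D box near the 3′ end. Box H/ACA snoRNAs guide the conversion of uridine to pseudouridine and end shortly after the letters ACA. scaRNAs do the same work on spliceosomal RNAs in Cajal bodies. Most mammalian snoRNAs and many microRNAs are cut from introns of longer host transcripts, so the same transcription unit can give rise to a messenger RNA or long noncoding RNA and to a small RNA. MicroRNAs pair with target messages mainly through their seed, bases 2 to 8 of the mature strand, and lower the stability or translation of those messages. In cartilage, microRNAs as a class are known to be needed for normal growth of the growth plate.

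Snord93 was counted under the identifier uc012dsy.3. Its position was matched by symbol, so the bases counted under that identifier are not known. GENCODE vM21 annotates Snord93 on the plus strand of mouse GRCm38 at chr5:23852210-23852280. It lies inside an intron of the long noncoding RNA 2700038G22Rik, the sole other gene annotated over these bases. Reads of the unspliced host and of the snoRNA lie on the same strand and cannot be told apart there. Its sequence is given because it is the member with measurements, beside Snord47 and Snord87, for which the host gene is itself in the set. Snord47 lies at chr1:161038082-161038158 on the plus strand, inside Gas5, and Snord87 at chr1:9942463-9942549 on the minus strand, inside Snhg6. The sequences are those of GENCODE vM21 on GRCm38, from 5′ to 3′. Capitals mark CTGA, the letters of the D box, and GATGA or TGATG, letters of the C box core, wherever they occur on the RNA strand, overlapping matches included.
Snord93: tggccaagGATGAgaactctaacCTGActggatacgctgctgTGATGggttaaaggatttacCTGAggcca
Snord47: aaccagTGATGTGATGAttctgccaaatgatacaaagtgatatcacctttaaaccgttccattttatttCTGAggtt
Snord87: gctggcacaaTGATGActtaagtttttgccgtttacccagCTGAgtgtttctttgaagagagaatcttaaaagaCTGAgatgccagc

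The annotated Snord93 is 71 bases long, and RefSeq gives a shorter form of 45 bases within it. The first 5 bases pair with the last 5. CTGA starts at positions 24 and 63 counted from the 5′ end, and the second match is followed by 5 bases. GATGA starts at position 9 and TGATG at position 43, and the longer form TGATGA was not found in Snord93. In Snord47 and Snord87 TGATGA is present, and the ends pair over 4 and 7 bases.

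The library of Tet1-/- replicate 1 differed from the others in a few genes, among them genes of skin, which were named after their values were seen. Krt42, a keratin of skin and nail, had 340 counts in Tet1-/- replicate 1 and 0 in the other 5 libraries. Klk15, a secreted protease, had 293 counts in that library and 0 in the others. Edar, a receptor that directs the formation of hair and other skin appendages, had 808 counts in Tet1-/- replicate 1 and between 0 and 61 in the others. Counts of 100 or more in a single library alone were found for 28 transcripts in Tet1-/- replicate 1, and for 2, 11 and 9 in Tet1+/+ replicates 1, 2 and 3 and 5 and 22 in Tet1-/- replicates 2 and 3. At any count, the most transcripts found in a single library alone were the 600 of Tet1-/- replicate 3, followed by 516 in Tet1-/- replicate 1. The fixed epidermal markers Krt5, Krt14 and Krt10 had no counts paired with their symbols. The same library held the highest level of Snord93, and the part of skin in the Snord93 values was not tested.

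Snord93 was detected at a low level in all 6 libraries. The estimated counts were 2, 2 and 4 in Tet1+/+ replicates 1, 2 and 3, and 10, 8 and 4 in Tet1-/- replicates 1, 2 and 3. Tet1-/- replicates 1 and 2 were above every Tet1+/+ library, and Tet1-/- replicate 3 had the same count as Tet1+/+ replicate 3, so the genotypes overlapped. The 95% exact Poisson interval of a single count ran from 0.242 to 7.22 for a count of 2 and from 4.80 to 18.4 for the count of 10, and these intervals cover counting error only.

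Scaled to library size with TMM factors, the level of Snord93 was 9.44, 7.32 and 11.8 CPM, the counts scaled to a common library size, in Tet1+/+ replicates 1, 2 and 3. In Tet1-/- replicates 1, 2 and 3 it was 32.4, 27.7 and 9.77 CPM. The library of Tet1-/- replicate 3 thus lay inside the range of the Tet1+/+ libraries, although its deposited counts had the largest sum of the 6. The mean was 9.52 ± 2.24 CPM (SD, n = 3) in Tet1+/+ and 23.3 ± 11.96 CPM (SD, n = 3) in Tet1-/-. The ratio of these means was 2.45, or 1.29 on the log2 scale, and without Tet1-/- replicate 1 it was 0.98 on the log2 scale. The difference of 13.8 CPM had a two-sided exact permutation p of 0.2 over the 20 assignments of 3 and 3 libraries. The smallest value that such a design allows is 0.1. With upper-quartile scaling, or with library size only, the p of the same permutation test was 0.3. The summed counts were 8 in Tet1+/+ and 22 in Tet1-/-, and their ratio over the summed TMM-scaled library sizes was 2.25. Its 95% interval of 0.965 to 5.85, from the exact binomial distribution, covers counting error only and leaves out the spread between libraries. No difference in Snord93 between the genotypes was established with these libraries. In a bulk tissue, a change in RNA per cell and a change in the number of cells that hold the RNA cannot be told apart. The labels do not say whether the samples of a genotype came from separate litters, and the technical part of the spread between libraries was not tested.

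**Figure D1:**
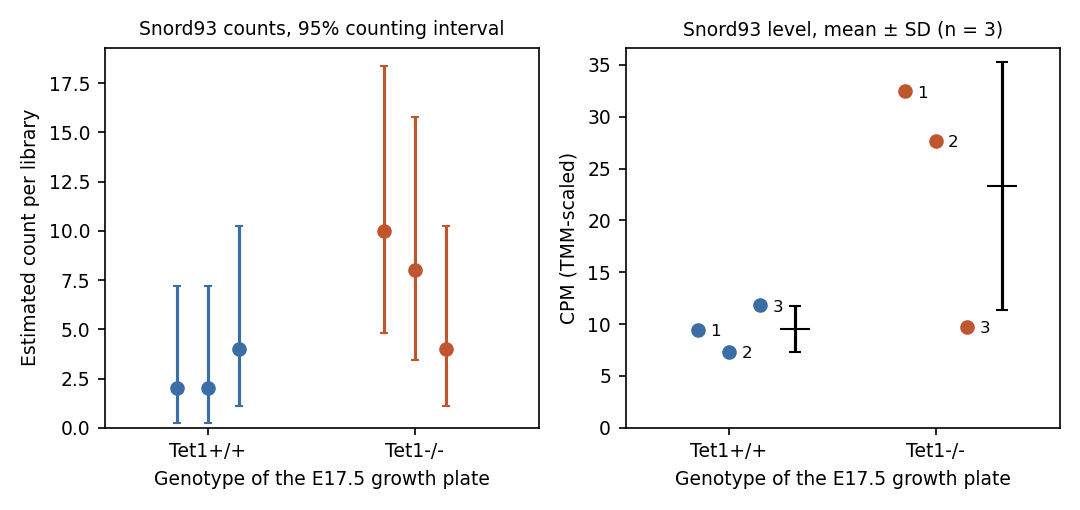
Snord93 in the 6 growth plate libraries. Left, estimated counts with their 95% exact Poisson interval; right, TMM-scaled CPM with the replicate number beside each point and, in black, the mean ± SD of each genotype (n = 3). Tet1-/- replicates 1 and 2 lie at 32.4 and 27.7 CPM, and replicate 3 lies at 9.77 CPM among the Tet1+/+ libraries, which run from 7.32 to 11.8 CPM.

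Snord93 was too low for the fit over all transcripts. The filter of that fit asks for 32.6 CPM in at least 3 libraries before TMM scaling, and Snord93 reached it in 0. Of the 3503 transcripts that passed, 0 (0%) had a Benjamini-Hochberg adjusted p under 0.05 by edgeR's quasi-likelihood test. An unadjusted p under 0.05 was found for 161 (4.6%), and for 148 to 316 with each library left out, where 3840 to 4239 transcripts were tested. Of 3460 transcripts tested, DESeq2 called 48 at the adjusted threshold and 299 at the unadjusted one. Without the filter, edgeR tested 9443 transcripts, of which 3 (0.0318%) had an adjusted p under 0.05 and 413 (4.37%) an unadjusted p under 0.05. In that fit Snord93 had a log2 ratio of 1.27 with a standard error of 1.503, and edgeR's adjusted p was 0.807. Snord93 was not among the transcripts called, and 4943 of the 9443 had a smaller p. In DESeq2 without the filter, 1717 of 9164 transcripts (18.7%) had a smaller p than Snord93. The median ratio over all transcripts tested in the edgeR fit was 0.19 on the log2 scale. In 13 fits without the filter, with other normalizations, other tests and each library left out in turn, the log2 fold change of Snord93 ran from 0.95 to 1.62. It was above 0 in 13 of them, and the adjusted p lay between 0.730 and 0.996. These fits reuse the same counts and are not independent.

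**Figure D2:**
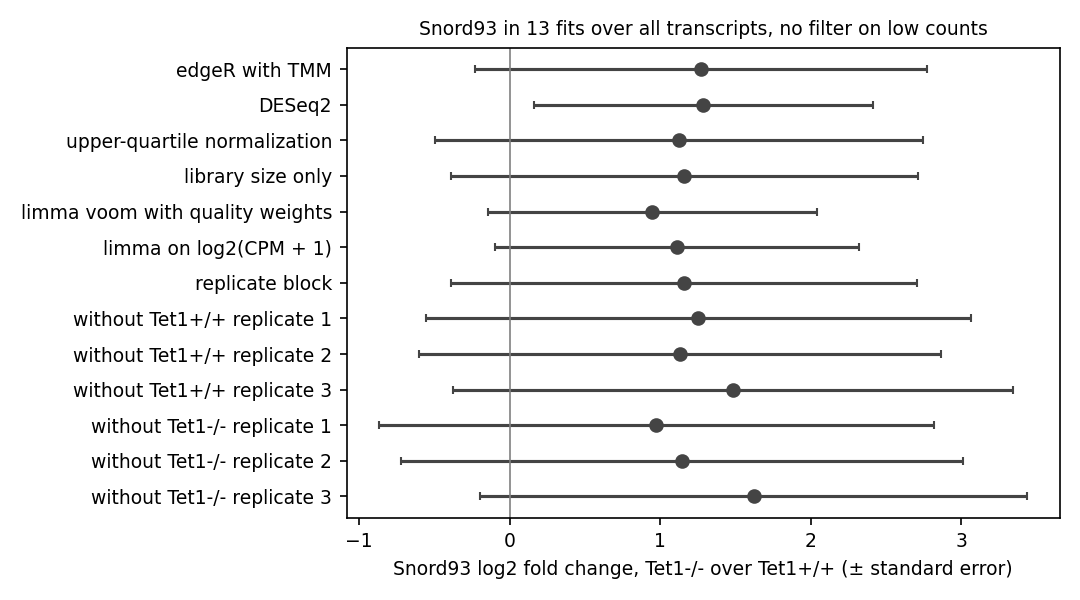
The log2 fold change of Snord93 in Tet1-/- over Tet1+/+ growth plates (points, with 1 standard error to either side) in 13 fits over all transcripts without a filter on low counts. The values lie between 0.95 and 1.62, and 0 of the 13 fits had an adjusted p under 0.05.

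Among all counted transcripts, Snord93 was detected widely but sparsely. A count in every library was found for 2752 of the 21929 identifiers (12.5%), Snord93 among them. Its sum over the libraries was 30, against a median of 271.5 for those 2752 transcripts, and 5.78% of them had a smaller sum. Over the 9443 transcripts with any count the median sum was 37, and 5011 of them had a larger sum than Snord93. Within a library, 60.95% of detected transcripts had a larger count than Snord93 in Tet1-/- replicate 1, and 88.4% in Tet1+/+ replicate 2, the lowest and highest of the 6 libraries. Of the 10 counted transcripts that the names in the authors' table pair with a symbol, Snord93 had the lowest sum, followed by the predicted gene Gm8692 at 34. Grip2, a scaffold protein of synapses, had the highest at 5228.

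**Figure D3:**
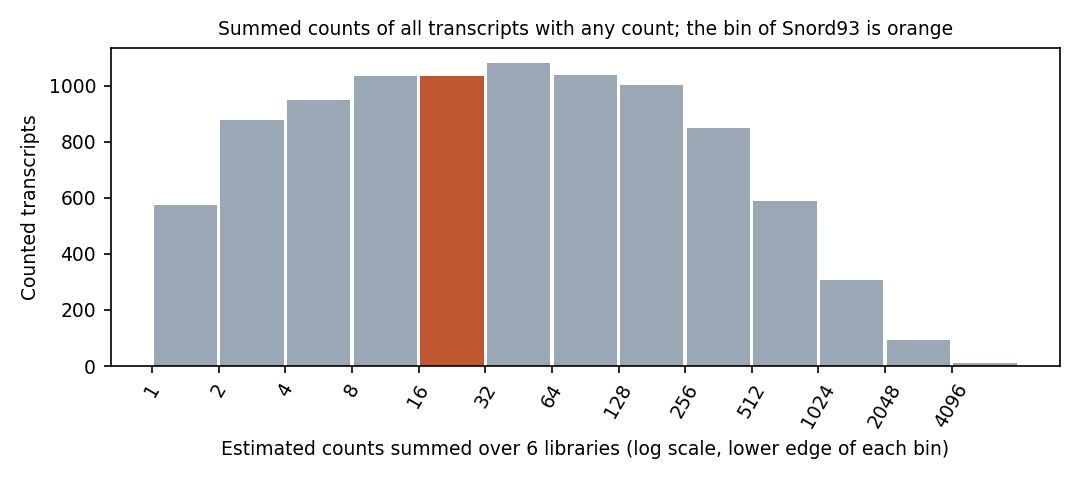
Number of counted transcripts (vertical axis) by the sum of their estimated counts over the 6 libraries (horizontal axis, log scale), for the 9443 transcripts with any count. The orange bar is the bin of 16 to 31 counts that holds Snord93, which has 30 counts and lies near the middle of the distribution.

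All 133 members had a position in GENCODE vM21 on GRCm38, 132 by their own symbol and Mir126 by an older one. The set covers the snoRNA classes more fully than the microRNAs. It holds 32 of the 98 box C/D snoRNA symbols of GENCODE (32.7%), 26 of 40 box H/ACA symbols (65.0%) and 7 of 9 scaRNA symbols (77.8%), against 60 of 1186 microRNA symbols (5.06%). How the authors chose the transcripts of the table is not stated, so these shares describe the table and do not give detection in the growth plate. Box C/D members are 64 to 238 bases long with a median of 76.5, box H/ACA members 121 to 196 with a median of 132, and microRNA hairpins 57 to 132 with a median of 83. The first 10 box C/D members by alphabet are Snord100, Snord104, Snord12, Snord123, Snord15a, Snord15b, Snord17, Snord19, Snord1a and Snord22. The first 10 box H/ACA members are Snora16a, Snora17, Snora19, Snora21, Snora23, Snora24, Snora26, Snora28, Snora3 and Snora30. Among the microRNA genes, Mir103-2, Mir126, Mir133a-1, Mir133a-2, Mir15a, Mir186, Mir1893, Mir1898, Mir1902 and Mir1903 come first.

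Of the 126 small RNAs, 105 lie within a longer gene on the same strand and 21 do not. Among the 105, 44 lie within introns, 51 within an exon of at least 1 annotated transcript and 10 across an exon edge. A host was annotated for 31 of 32 box C/D snoRNAs (96.9%) and 25 of 26 box H/ACA snoRNAs (96.2%), near the 96.9% and 92.5% of all GENCODE symbols of these classes. For microRNAs it was 44 of 61 (72.1%), against 68.7% of all microRNA symbols. For scaRNAs it was 5 of 7 (71.4%), against 77.8%. For 27 of the 105, the host also has a row in the authors' table.

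**Figure D4:**
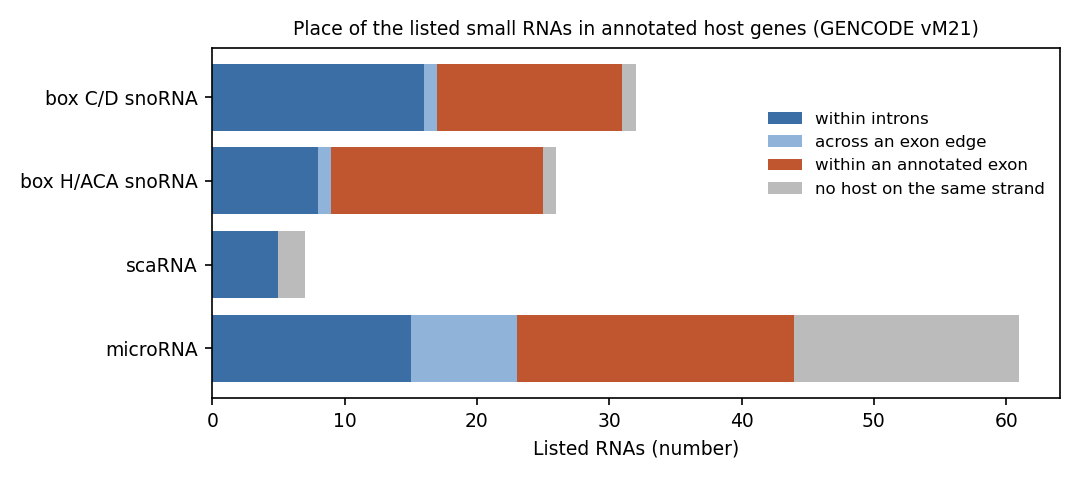
Place of the 126 listed small RNAs in longer genes on the same strand, by class (horizontal bars, number of RNAs). Of the box C/D snoRNAs 16 lie within introns and 14 within an annotated exon, while 17 of the 61 microRNAs have no annotated host.

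Genes of ribosomes and translation are among the hosts of the snoRNAs. Of 65 snoRNAs and scaRNAs, 18 lie in genes of ribosomal proteins, counting Rack1, which encodes a protein of the small subunit and holds Snord96a, and 6 in genes of translation initiation or elongation factors. These are 27.7% and 9.23% of the members, against 23.8% and 4.76% of all 147 GENCODE symbols of these classes, members included. Snord15a and Snord15b share the gene of ribosomal protein Rps3, and Snora21 lies in an intron of Rpl23. Snord37 lies in an intron of Eef2, which moves the ribosome along the message, and Snora81 lies in Eif4a2, an RNA helicase of initiation. Hosts of ribosome assembly were Nop56, a core protein of box C/D particles, for Snord57, Gnl3 (nucleostemin) for Snord19 and Snord69, and Ncl (nucleolin) for Snora75.

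Among long noncoding hosts, 2 held more than 1 member. Snhg12 carries Snora16a, Snora44, Snora61 and Snord99, and 2410006H16Rik carries Snord49a, Snord49b and Snord65. For 3 members the host itself belongs to the set, namely Snord47 in Gas5, Snord87 in Snhg6 and Snora78 in Snhg9. Gas5 is known as a host of many box C/D snoRNAs whose spliced RNA is degraded during translation.

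The motifs of each class were looked for in the annotated snoRNA sequences. CTGA was found in the last 10 bases, on the RNA strand, in 20 of 32 box C/D members (62.5%) and in 70 of 97 such sequences of GENCODE, members included (72.2%). TGATGA was found in the first 15 bases in 17 of 32 members (53.1%) and 63 of the 97 (64.9%). Snord93 has CTGA in its last 10 bases and lacks TGATGA. ACA was found exactly 3 bases before the end in 21 of 26 box H/ACA members (80.8%) and 33 of 40 sequences of the class (82.5%). A match describes letters in a window and not a functional site.

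The microRNA genes of the set include several known for one tissue. Mir455 lies at chr4:63256851-63256932 in an intron of Col27a1, a fibrillar collagen gene of cartilage that also has a row in the authors' table. Mir675 lies at chr7:142577064-142577147 in an exon of H19, the imprinted long noncoding RNA from which it is cut, and Mir483 lies in an intron of Igf2 on the same chromosome. Mir126 lies in Egfl7, a gene of endothelial cells, Mir223 is known from myeloid cells, and Mir205 from epithelia. Mir1a-1 and Mir133a-2 are microRNA genes of muscle. No count of these microRNAs was analysed, so their presence in the list says nothing of those tissues in the dissected cartilage.

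RefSeq on GRCm38.p6 held mature sequences for 56 of the 61 microRNA members, 90 strands in all with 86 distinct seeds. Most of these strands had a seed of their own, and 4 seeds were shared by 2 members each. The pairs that share one are let-7a and let-7c, miR-15a and miR-322 on their 5p strands, and both strands of the 2 Mir3070 genes. Mir126, Mir133a-1, Mir133a-2, Mir1893 and Mir1907 had no mature sequence there, so seeds that they may share were not compared. The mature 5p strands of the first 2 pairs, and both strands of miR-455, are given below with the seed in capitals, to show which bases are common to each pair.
mmu-let-7a-5p: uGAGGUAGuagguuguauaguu
mmu-let-7c-5p: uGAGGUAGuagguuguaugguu
mmu-miR-15a-5p: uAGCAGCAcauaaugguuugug
mmu-miR-322-5p: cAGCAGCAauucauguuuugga
mmu-miR-455-5p: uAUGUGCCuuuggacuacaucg
mmu-miR-455-3p: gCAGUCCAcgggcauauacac

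The seed GAGGUAG of let-7a and let-7c is shared by 13 mouse microRNA genes in RefSeq, and AGCAGCA of miR-15a and miR-322 by 11. The 5p seed of miR-455 is held by 2 genes and its 3p seed by Mir455 alone. let-7 microRNAs are known for restraining proliferation and marking differentiated cells, and the miR-15 family for restraining the cell cycle.

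A group of microRNA members lies at the imprinted Dlk1-Dio3 region of chromosome 12, where long noncoding RNAs and microRNAs are expressed from the maternal copy. Of 17 members on that chromosome, 14 are microRNA genes on the plus strand within 250 kb of the start of Meg3, where GENCODE has 57 microRNA symbols on this strand. Mir770 lies in an exon of Meg3, 22.7 kb from its start. Mir673, Mir493, Mir337, Mir540, Mir665, Mir3070a, Mir3070b and Mir433 follow between 30.99 and 50.7 kb, and Mir337, Mir540 and Mir665 lie in a stretch of less than 1 kb. Mir370 lies in an intron of Rian at 77.3 kb, Mir882, Mir379 and Mir679 lie between 141.2 and 174.6 kb, and Mir3072 lies at an exon edge of Mirg at 206.9 kb. These 14 genes share a strand and neighbourhood, and are not independent members of the set.

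**Figure D5:**
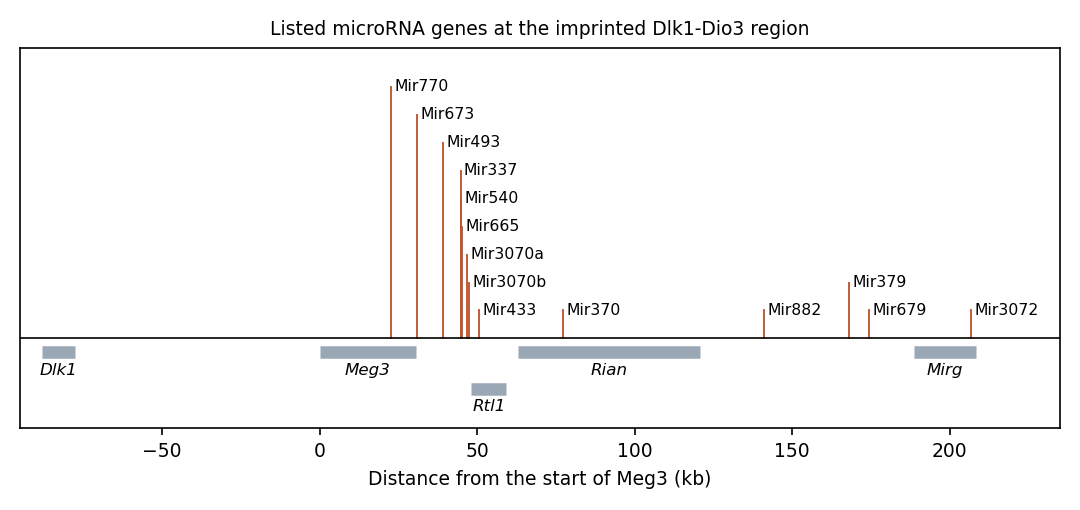
The 14 listed microRNA genes at the Dlk1-Dio3 region, drawn by distance from the start of Meg3 in kb (horizontal axis), with annotated genes as grey bars and Rtl1, on the opposite strand, drawn lower. Mir673 to Mir433, 8 of the 14, lie between the end of Meg3 and the start of Rian.

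For the proteins that make or carry these RNAs, no level was analysed either. Of 39 genes of snoRNA particles, microRNA processing, RNase P and MRP, the 7SK and La complexes and nuclear speckles and paraspeckles, 17 have a row in the authors' table. These include Fbl, the methyltransferase of box C/D particles, Nhp2 and Nop10 of box H/ACA particles, Drosha and Dicer1, the nucleases that cut microRNA precursors, and Pspc1 and Nono of paraspeckles. None of the 39 had a count paired with its symbol through the names in the authors' table, which named 10 counted transcripts. Whether they have counts under other identifiers was not tested.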

How the data were processed

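Growth plate libraries of 3 Tet1+/+ and 3 Tet1-/- samples were grouped by the genotype and number in their titles. By the paper's methods and the submitters' processing notes, reads were trimmed with Trimmomatic, mapped to mm10 with HISAT2 and assembled with StringTie; the counting tool is not given in the sources used here. The authors deposited 1 file of estimated counts per library, by UCSC transcript identifier, unscaled and already whole. The deposited table of the authors' own Ballgown comparison gives per transcript how much it differed and the test's p- and q-values; these columns were not used, and its names alone were read. The members and lists were chosen with earlier results of these data known.

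CPM used library totals and TMM factors. The genotypes were compared in R 4.3.3 by edgeR 4.0.16 (quasi-likelihood, robust, TMM, filterByExpr with a minimum count of 10, genotype as the term, Benjamini-Hochberg over all transcripts), which was checked on simulated counts. Standard errors were taken as the size of the log2 fold change over the root of the F statistic. Alternatives were DESeq2 1.42.0, limma 3.58.1 (voom, and log2(CPM + 1)), upper-quartile and library-size scaling, other filters, each library left out and a replicate block. Since Snord93 did not pass the filter, its reported value is the ratio of mean CPM with an exact permutation test, and the alternatives without the filter in combination were added after seeing the data. Named were every member with counts, in full. Positions, hosts and sequences of the rest came from GENCODE vM21 and RefSeq on GRCm38, the build of mm10. Where several hosts were annotated, the shortest with a name other than a predicted gene's was taken. Snord89, Mir682 and Mir1906-2 have a predicted gene as their sole host. Members without counts were named up to 10 a class by alphabet, or by host, sequence or position; Mir205, Mir223 and Mir1a-1 were picked for their known roles. A count of 0 allows up to 3 counts. No 2 libraries repeated each other, with a chi-square statistic of at least 13.6 times its degrees of freedom between any pair.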

Additional observations from a re-analysis of the deposited data

How the results depend on the processing

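Snord93 was higher in Tet1-/- under all 24 settings of its ratio, from 0.95 to 1.66 on the log2 scale. It was under the threshold in none of the fits and tests run. With each library left out the ratio of means ran from 0.98 to 1.66. All these settings reuse the same few counts, so the shared direction is not independent support for a difference. With at least 10 counts in every library, and in fits with the filter, Snord93 gave no value. At 3 counts or more it was detected in 4 libraries, against 6 at any count. Over all transcripts, the number at an adjusted p under 0.05 was 0, and it was 48 with DESeq2, 3 without a filter, 2 with at least 10 counts in every library and 3 with limma on log2(CPM + 1); with each library left out it ran from 0 to 0. At an unadjusted p under 0.05 it was 161, against 299 with DESeq2 and 413 without a filter, and from 148 to 316 with each library left out (the highest were 316 when Tet1-/- replicate 2 was dropped and 258 when Tet1+/+ replicate 3 was). The cause was not tested. The number of transcripts tested also differed, at 3503 in the main fit and 9443 or 1691 with the other filters. It was 3460 with DESeq2 and 3840 to 4239 with each library left out. The replicate number pairs no samples by the labels, and deviations of same-numbered libraries correlated at 0.02, -0.05 and 0.13, with 2 of 6 libraries closest to their own number. With the number as a replicate block the counts were 0 and 124, and Snord93 had a log2 fold change of 1.16 without the filter.

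For 132 of the 133 members no count was paired with the name. For Snord93, a floor of 3 counts equals 7.32 to 14.2 CPM across the libraries, and its count of 2 lay below the floor in Tet1+/+ replicates 1 and 2, while the count of 4 in replicate 3 of each genotype lay near it. With 3 libraries a genotype, the permutation test could not go below 0.1 at any depth.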
